A study of Homo sapiens with 9 samples.

Results

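A set of 9 transcription factors of the prostate lineage or of the androgen response was followed over 9 arrays: SNAI2, SPDEF, MAF, ZBTB16, ZBTB10, HOXB13, FOXA1, GATA2 and ETV1. They are 9 of the 12165 genes that the arrays' annotation names, and 21 of the 22215 probe sets are annotated to 1 of them alone. The genes were selected on their intensities and fold changes in the same 3 groups, with earlier results known, so that the calls below describe them and are not independent evidence of a direction. The cells were LNCaP, a human prostate cancer line that depends on androgen and whose androgen receptor carries a mutation that widens its choice of ligands. They were held for 2 days in medium with 10% charcoal-stripped serum, which is poor in steroids, and then treated. Androgen plus celastrol cultures received 1 nM R1881, a synthetic androgen, and 1.25 µM celastrol, a plant triterpenoid. Androgen cultures received 1 nM R1881 and DMSO, and vehicle cultures received ethanol and DMSO. Each group held 3 arrays, called biological replicates in the labels, and no group received celastrol without androgen. Treatment lasted 24 h by the labels, but for the androgen arrays the titles say 6 h where the descriptions say 24 h. Which is right was not resolved, and a difference in time between androgen and either other group cannot be told apart from the treatment.

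Androgen receptor is a hormone-bound transcription factor, and in prostate luminal cells it binds chromatin together with the pioneer factors FOXA1 and GATA2 and the homeobox protein HOXB13. Genes that it induces include further transcription factors, through which part of a hormone response passes on to other genes. Celastrol is known to disturb the HSP90 chaperone system, on which steroid receptors depend for their folding.

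Intensities below are the authors' RMA values on a linear scale, and a log2 fold change comes from a limma fit over all 9 arrays and all 22215 probe sets, with its standard error. A probe set is said to have risen or fallen, or to be called, where its Benjamini-Hochberg adjusted p over all probe sets was below 0.05. A gene with several probe sets is represented by its leading one, which has the highest mean over the 9 arrays. Array medians ran from 72.2 to 80.2. Vehicle replicate 3 stood apart, with an upper quartile of 332.5 against 377.4 to 408.7 on the others, and 7 of the 9 factors were lowest there among the vehicle arrays, as were 50.6% of all genes. The 7 measured luminal markers, among them KRT8, KRT18, KLK3 and FOLH1, lay above the array median on every array. Of these, 5 rose with androgen, among them KLK3, the gene of prostate-specific antigen (log2 fold change 2.15 ± 0.08), FOLH1 fell (-0.51 ± 0.07) and ACP3 was not called (-0.29 ± 0.10). With added celastrol 5 fell, among them KLK3 (-0.85 ± 0.08) and ACP3 (-2.41 ± 0.10), and FOLH1 (0.22 ± 0.07) and TMPRSS2 (-0.16 ± 0.15) were not called. Their summed intensity was 36391 to 39422 with androgen plus celastrol, 52264 to 55291 with androgen and 29614 to 29799 with vehicle. The 16 measured markers of basal, stromal, leukocyte and neuroendocrine cells lay below the array median on at least 7 of 9 arrays each, and their summed intensity was 645 to 676 with androgen plus celastrol, 621 to 665 with androgen and 658 to 792 with vehicle. RNA came from whole cultures, so that fewer expressing cells and less RNA per cell cannot be told apart.

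The leading probe sets showed 3 patterns. SNAI2, MAF and SPDEF rose with androgen and were lower with androgen plus celastrol than with androgen alone. ZBTB16 and ZBTB10 rose with androgen, and neither was called lower when celastrol was added. HOXB13, FOXA1, GATA2 and ETV1 were not called for androgen on their leading probe sets, and of these ETV1 fell when celastrol was added. In all, 5 of 9 factors were called higher and none lower for androgen against vehicle, where 6.71% of all genes were called higher and 5.35% lower. At an unadjusted p under 0.05 these counts were 6 and 2. For that threshold no share of all genes was counted, here or below, so that such counts stand without a comparison. For androgen plus celastrol against androgen, 4 of 9 were called lower and none higher, where 6.6% of all genes were called lower and 8.13% higher, and 5 and 0 passed at an unadjusted p under 0.05. The arrays of the compared groups did not overlap for 9 of 9 factors in the first comparison, where 28.3% of all genes had no overlap, and for 5 of 9 in the second, where 35.9% did. Of all 21 probe sets of the factors, 11 were called higher and 1 lower for androgen, against 6.04% and 4.47% of all probe sets, and 17 did not overlap, against 25.3%. For added celastrol 10 of the 21 were called lower and none higher, against 5.66% and 6.91%, and 14 did not overlap, against 32.3%. Nothing is read from these shares, because the factors were chosen with the comparisons known. The median log2 fold change of the 9 factors was 1.39 for androgen and -0.34 for added celastrol, against -0.04 and 0.02 for all genes.

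**Figure D1:**
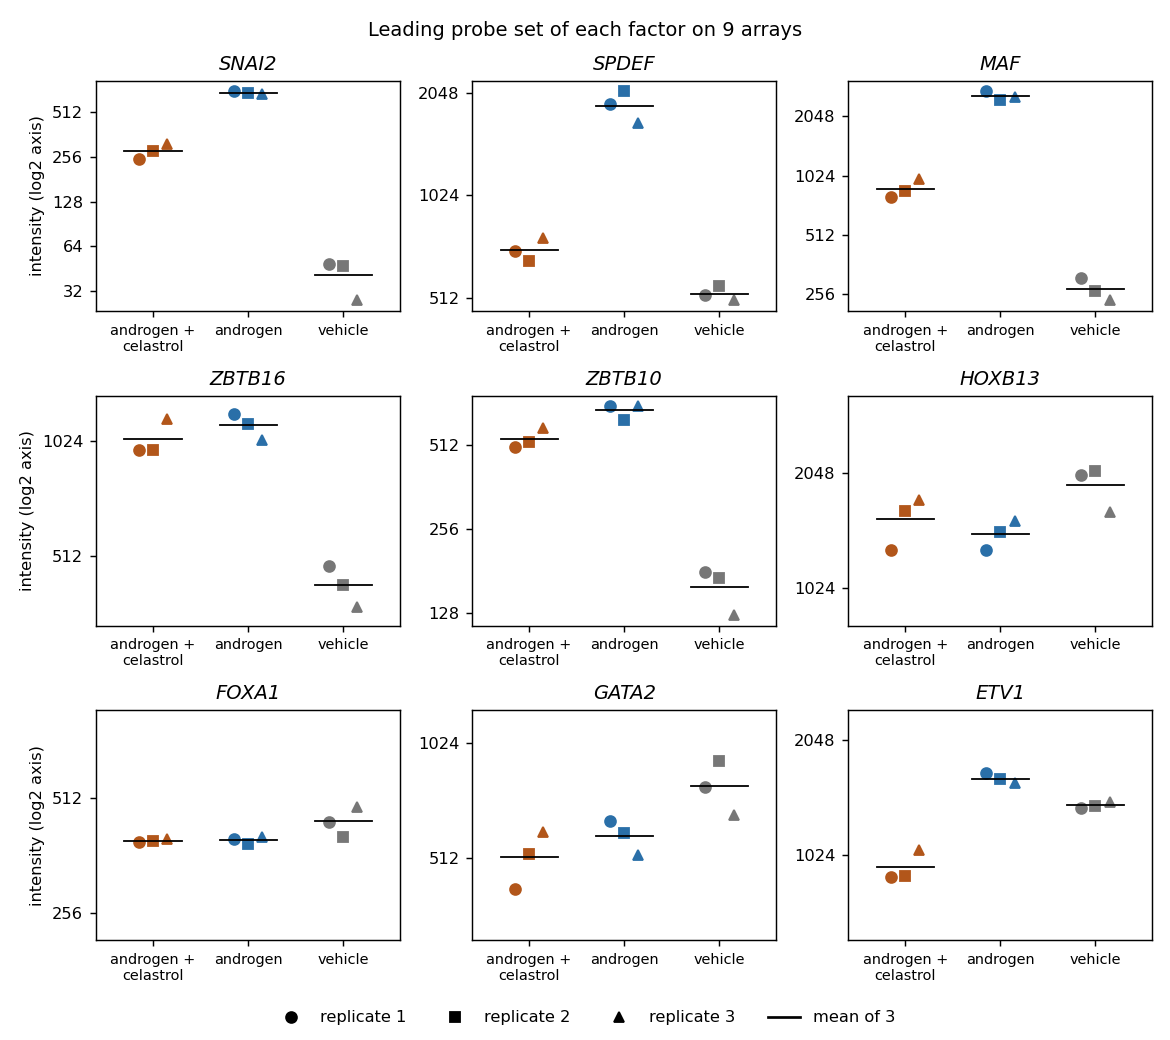
Intensity (log2 axis) of the leading probe set of each of the 9 factors on each array, with symbols for replicates 1 to 3 and a bar at the mean of 3 arrays. For SNAI2, SPDEF and MAF the androgen plus celastrol arrays lie between the androgen and the vehicle arrays, ZBTB16 overlaps between the androgen groups, and ETV1 is lowest with androgen plus celastrol.

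SNAI2, known as Slug, is a zinc finger repressor of E-cadherin and other epithelial genes. Its intensity was 247.2, 280.5 and 310.5 on the androgen plus celastrol arrays, 706.3, 691.5 and 675.7 on the androgen arrays and 48.5, 47.3 and 27.6 on the vehicle arrays. The 3 groups did not overlap, and the vehicle values lay below the array median, with replicate 3 below its array's lower quartile. Androgen against vehicle gave a log2 fold change of 4.12 ± 0.20, the largest among the 9 factors. It was 3.85 without vehicle replicate 3, and 3.65 with a pseudocount of 16. Androgen plus celastrol against androgen gave -1.31 ± 0.20, and against vehicle SNAI2 still stood 2.80 ± 0.20 higher.

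MAF is a leucine zipper factor of the large MAF family, which acts in lens and lymphocyte differentiation. Its leading probe set read 798.7, 853.5 and 978.5 with androgen plus celastrol, 2743, 2476 and 2565 with androgen and 308.7, 262.9 and 236.5 with vehicle, without overlap between groups. The log2 fold change was 3.28 ± 0.12 for androgen against vehicle and -1.57 ± 0.12 for androgen plus celastrol against androgen, the largest fall among the 9 leading probe sets. Against vehicle the combined treatment gave 1.71 ± 0.12. A further MAF probe set with the same calls read 342.4, 306.8 and 419.0 with androgen plus celastrol, 787.8, 838.0 and 738.4 with androgen and 65.3, 74.1 and 62.5 with vehicle. Its log2 fold changes were 3.55 ± 0.13 for androgen and -1.16 ± 0.13 for added celastrol. The third one, whose group means lay between 82.5 and 154, was not called, at 0.76 ± 0.30 for androgen (adjusted p = 0.189) and -0.80 ± 0.30 for added celastrol (adjusted p = 0.141). Its androgen values of 101.0, 122.9 and 238.9 varied more than those of the other MAF probe sets.

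SPDEF, the prostate-derived ETS factor, is expressed in secretory epithelia and promotes their differentiation. It read 701.7, 658.0 and 767.9 with androgen plus celastrol, 1892, 2065 and 1667 with androgen and 522.9, 554.2 and 503.2 with vehicle. The androgen arrays stood far above both other groups, which lay close to each other without overlap. Log2 fold changes were 1.83 ± 0.10 for androgen against vehicle, -1.40 ± 0.10 for androgen plus celastrol against androgen and 0.43 ± 0.10 for the combined treatment against vehicle. That last call was lost without androgen plus celastrol replicate 3 (adjusted p = 0.0737) or vehicle replicate 1 (adjusted p = 0.0592) and with the mean of all probe sets (0.24, adjusted p = 0.230). Both further bright probe sets of SPDEF gave the same calls for androgen, at 1.82 ± 0.15 and 1.41 ± 0.10, and for added celastrol, at -1.46 ± 0.15 and -1.14 ± 0.10. Neither was called against vehicle with the combined treatment, at 0.36 ± 0.15 (adjusted p = 0.141) and 0.27 ± 0.10 (adjusted p = 0.0838). The remaining 2 lay below the array median on all 9 arrays and were not called in any comparison. All 5 SPDEF probe sets carry the suffix x, with which Affymetrix marks sets whose probes may bind other transcripts.

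ZBTB16, also called PLZF, is a BTB zinc finger repressor that marks spermatogonial stem cells and is known to be induced by androgens and glucocorticoids. It read 969.9, 965.7 and 1165 with androgen plus celastrol, 1204, 1135 and 1031 with androgen and 482.1, 429.4 and 374.3 with vehicle. The vehicle arrays lay below all others, and the androgen groups overlapped. Androgen raised it by 1.39 ± 0.12 on the log2 scale. With celastrol added the difference from androgen alone was -0.12 ± 0.12 (adjusted p = 0.645), with a 95% interval from -0.40 to 0.16, and the combined treatment stood 1.27 ± 0.12 above vehicle.

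ZBTB10 belongs to the same protein family and is known to repress genes that SP1 and its relatives activate. It read 504.6, 524.7 and 588.0 with androgen plus celastrol, 706.0, 631.9 and 705.2 with androgen and 179.2, 171.0 and 125.5 with vehicle. All 3 groups were apart, with the androgen groups near each other. The log2 fold change was 2.12 ± 0.14 for androgen and 1.78 ± 0.14 for the combined treatment, both against vehicle. Androgen plus celastrol against androgen gave -0.34 ± 0.14, which was not called (adjusted p = 0.184, 95% interval -0.66 to -0.02) although the arrays did not overlap. It was called without vehicle replicate 3 (adjusted p = 0.0319), with quantile normalization (-0.36, adjusted p = 0.0324) and with cyclic loess normalization (-0.37, adjusted p = 0.0357).

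**Figure D2:**
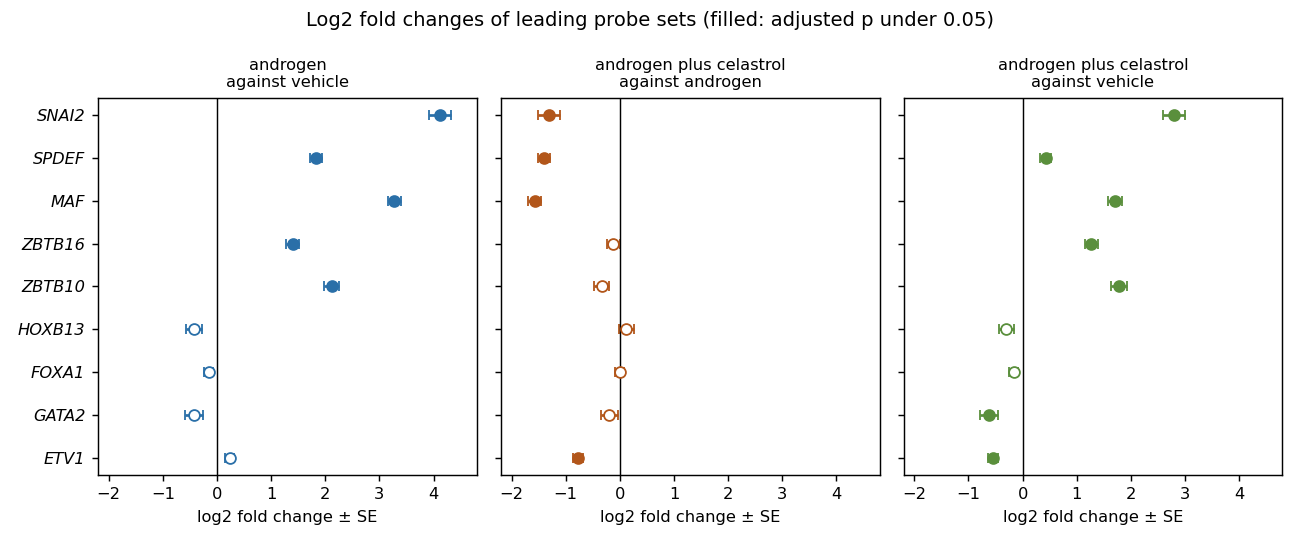
Log2 fold change with its standard error (x axis) of the leading probe set of each factor (y axis) in the 3 comparisons, filled where the adjusted p was below 0.05. SNAI2, SPDEF and MAF are filled on opposite sides of 0 in the panels for androgen and for added celastrol, whereas ZBTB16 and ZBTB10 are open near 0 for added celastrol.

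The comparisons share arrays, so that their sizes are set side by side only. Among the 5 factors called for androgen, the combined treatment remained above vehicle by 2.80 for SNAI2, 1.78 for ZBTB10, 1.71 for MAF, 1.27 for ZBTB16 and 0.43 for SPDEF on the log2 scale. Over all genes, 12.6% were called higher and 9.3% lower in that comparison. Of the 9 factors, 5 were called higher and 2, GATA2 and ETV1, lower, and 8 did not overlap, against 37.2% of all genes. Of the 21 probe sets 6 were called higher and 3 lower, against 11.1% and 7.94% of all probe sets, and 13 did not overlap, against 33.5%.

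ETV1 is an ETS factor of the PEA3 group and an oncogene of prostate cancer, and in LNCaP its locus is known to be rearranged. The leading probe set read 895.7, 900.1 and 1054 with androgen plus celastrol, 1677, 1615 and 1579 with androgen and 1361, 1375 and 1408 with vehicle. The order of groups was therefore unlike that of any other factor, with the combined treatment lowest and androgen highest, and no groups overlapped. Androgen plus celastrol against androgen gave a log2 fold change of -0.78 ± 0.09, and 4 of 5 ETV1 probe sets were called there, between -0.78 and -0.80. The fifth, a dim one below the array median on all 9 arrays, gave -0.40 ± 0.12 (adjusted p = 0.0537). Against vehicle the combined treatment gave -0.54 ± 0.09 on the leading probe set, which was called. The other 4 gave -0.29, -0.19, -0.20 and -0.01 with adjusted p between 0.0684 and 0.977 and were not called. The mean of the 5 probe sets gave -0.25 there, which was called (adjusted p = 0.0399). For androgen against vehicle the leading probe set was not called, at 0.23 ± 0.09 (adjusted p = 0.160), but 3 others rose by 0.49 ± 0.10, 0.62 ± 0.12 and 0.60 ± 0.13. The sets at 0.49 and 0.60 carry the suffix x, as those of SPDEF do. With the mean of the 5 probe sets ETV1 was called for androgen at 0.47 (adjusted p = 0.00261), and with each array's median subtracted its leading probe set was called at 0.31 (adjusted p = 0.0496).

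GATA2, a zinc finger factor that also drives transcription of the androgen receptor gene, read 423.5, 522.3 and 596.3 with androgen plus celastrol, 639.1, 594.4 and 520.8 with androgen and 784.6, 916.7 and 662.9 with vehicle on its leading probe set. The vehicle arrays lay above all others, and the androgen groups overlapped. The combined treatment against vehicle gave -0.62 ± 0.16 and was called. The call was lost without androgen plus celastrol replicate 1 or 2 or vehicle replicate 1 or 2 (adjusted p = 0.0647 to 0.0785), and in a fit of the compared groups only (0.0653). Androgen against vehicle gave -0.42 ± 0.16 (adjusted p = 0.163), and was called with quantile normalization (-0.50, adjusted p = 0.0469), cyclic loess normalization (-0.47, adjusted p = 0.0499) or the mean of the probe sets (-0.34, adjusted p = 0.0365). A further GATA2 probe set read 203.1, 198.7 and 201.9 with androgen plus celastrol, 193.6, 159.3 and 197.6 with androgen and 272.5, 278.8 and 320.0 with vehicle. This set also carries the suffix x. It fell with androgen by 0.67 on the log2 scale and with the combined treatment by 0.53, both against vehicle. Added celastrol gave -0.20 ± 0.16 and 0.14 ± 0.11 against androgen on these probe sets, and neither was called. The third GATA2 probe set lay below the array median on all 9 arrays and was not called in any comparison.

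HOXB13, a homeobox factor that marks the prostate and binds with the androgen receptor, read 1287, 1630 and 1740 with androgen plus celastrol, 1291, 1436 and 1531 with androgen and 2029, 2072 and 1624 with vehicle. Vehicle was highest, but vehicle replicate 3 lay inside the range of the combined treatment. Androgen against vehicle gave -0.42 ± 0.14 (adjusted p = 0.116), which was called without vehicle replicate 3 at -0.53 (adjusted p = 0.0405). Added celastrol gave 0.12 ± 0.14 against androgen (adjusted p = 0.704, 95% interval -0.20 to 0.45).

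FOXA1, a forkhead pioneer factor that opens chromatin for the androgen receptor, read 393.9, 395.9 and 400.4 with androgen plus celastrol, 399.5, 389.0 and 405.9 with androgen and 442.5, 406.1 and 487.3 with vehicle. Its levels with and without celastrol overlapped, and the lowest vehicle value lay just above the highest androgen value. Added celastrol gave -0.005 ± 0.086 against androgen (adjusted p = 0.984), with a 95% interval from -0.20 to 0.19. Androgen against vehicle gave -0.16 ± 0.09 (adjusted p = 0.379), with an interval from -0.35 to 0.04. FOXA1 was not called in any comparison under any of the 19 alternative settings.

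**Figure D3:**
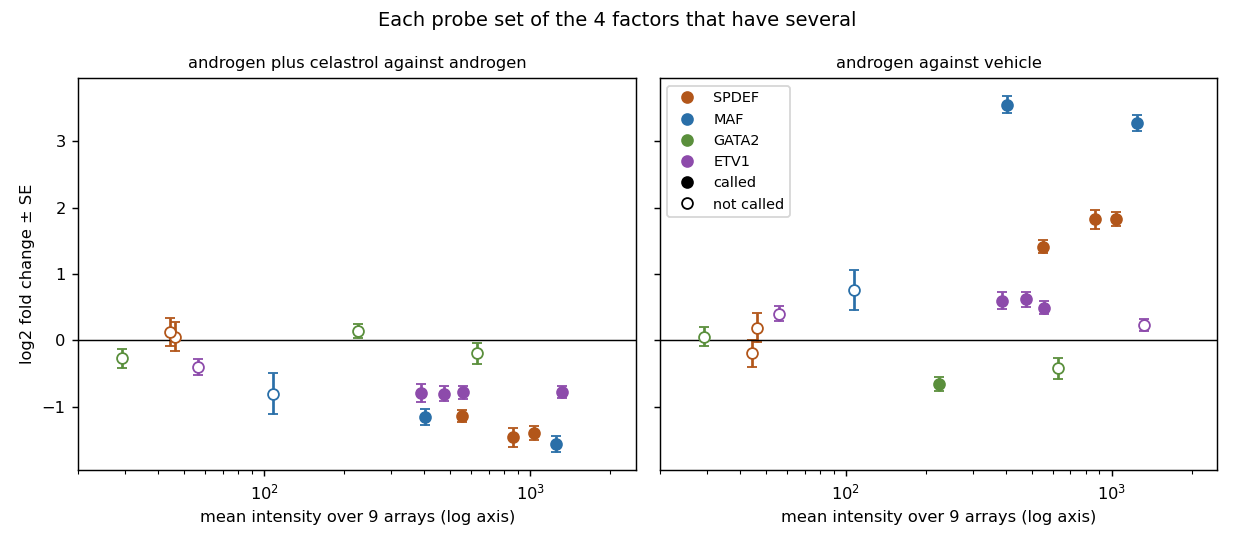
Log2 fold change with its standard error (y axis) against mean intensity over 9 arrays (log axis) for each probe set of SPDEF, MAF, GATA2 and ETV1, for added celastrol (left) and androgen (right), filled where called. The 5 dimmest probe sets are open in both panels, and the brighter SPDEF and MAF sets are filled on opposite sides of 0.

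The genes whose leading probe sets followed the factors most closely over the log2 values of the 9 arrays are given as a description, since all share the same arrays and groups. For SNAI2 these were the kallikrein KLK2 (Pearson r = 0.999) and GREB1 (0.997). For MAF they were the tropomyosin TPM1 (0.998) and HPGD (0.996), which inactivates prostaglandins. SPDEF was followed by the spermine synthase gene SMS (0.993) and the actin-capping CAPZB (0.985). For ZBTB16 they were COX17 and IQCB1 (both 0.994), and for ZBTB10 CADPS2 (0.996) and SEC24B (0.995). GATA2 was followed by ZHX3 (0.991) and DDB2 (0.982), and ETV1 by the replication licensing inhibitor GMNN (0.996) and the mitotic regulator CDC20 (0.995). GMNN gave 0.33 for androgen against vehicle, -1.04 for added celastrol and -0.71 for the combined treatment against vehicle on the log2 scale, and CDC20 gave 0.23, -1.05 and -0.81.

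Promoters are shown for those factors called in at least 1 comparison that had a window. Of these, SPDEF, MAF and ETV1 fell when celastrol was added and GATA2 was not called there. SNAI2 also fell but had no window. Whether promoter sequence bears on these changes was not tested. RefSeq windows of 300 bases, from 250 before to 50 after a gene start, were matched by symbol for 5 of the 9 factors (SPDEF, MAF, GATA2, ETV1 and FOXA1) on GRCh38.p14. SNAI2, ZBTB16, ZBTB10 and HOXB13 had no entry. The windows below lie on the minus strand of the chromosome and read 5′ to 3′ along the gene, at the outermost start where the table gives several (6 for ETV1, 2 for GATA2). Capitals mark matches to any of 6 motifs searched on both strands. These were the androgen receptor motif AGAACA, its relaxed palindrome (GNACA and TGTNC with any 3 bases between), the forkhead motif TGTTTAC, the GATA motif AGATAA, the ETS motif CCGGAA and the Snail motif CAGGTG.
SPDEF promoter, chr6:34556280-34556579: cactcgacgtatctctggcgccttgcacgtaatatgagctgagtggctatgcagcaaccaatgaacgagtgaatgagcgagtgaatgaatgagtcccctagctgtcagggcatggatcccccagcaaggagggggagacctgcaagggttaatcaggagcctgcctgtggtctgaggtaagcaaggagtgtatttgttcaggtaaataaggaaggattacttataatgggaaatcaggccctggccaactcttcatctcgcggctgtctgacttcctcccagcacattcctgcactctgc
MAF promoter, chr16:79600688-79600987: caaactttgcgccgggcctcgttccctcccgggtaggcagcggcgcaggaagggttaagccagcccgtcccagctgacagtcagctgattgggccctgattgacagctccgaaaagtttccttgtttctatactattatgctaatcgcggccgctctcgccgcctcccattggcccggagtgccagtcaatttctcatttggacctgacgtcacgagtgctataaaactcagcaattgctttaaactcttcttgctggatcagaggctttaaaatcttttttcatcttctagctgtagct
ETV1 promoter, chr7:13991376-13991675: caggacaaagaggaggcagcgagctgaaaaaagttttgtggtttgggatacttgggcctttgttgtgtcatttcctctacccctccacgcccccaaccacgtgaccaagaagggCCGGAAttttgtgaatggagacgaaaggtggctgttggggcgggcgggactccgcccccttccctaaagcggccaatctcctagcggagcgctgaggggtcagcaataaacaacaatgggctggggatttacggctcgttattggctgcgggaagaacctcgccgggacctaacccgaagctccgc
GATA2 promoter, chr3:128493152-128493451: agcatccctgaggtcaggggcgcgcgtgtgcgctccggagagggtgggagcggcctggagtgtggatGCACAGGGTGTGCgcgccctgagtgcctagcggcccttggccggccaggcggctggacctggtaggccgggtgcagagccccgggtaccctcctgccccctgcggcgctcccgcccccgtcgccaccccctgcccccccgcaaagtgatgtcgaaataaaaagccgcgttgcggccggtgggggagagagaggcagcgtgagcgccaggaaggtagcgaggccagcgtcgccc
The SPDEF and MAF windows held none of the 6 motifs. The GATA2 window held the relaxed palindrome at bases 68 to 80, overlapping none of the others, and 0.39% of all 35116 windows held it. The ETV1 window held the ETS motif at bases 115 to 120, as did 17.2% of all windows. Of the other ETV1 windows, 2 that overlap each other, at chr7:13990653-13990952 and chr7:13990657-13990956, each held 1 AGAACA and 1 CCGGAA, and the rest none of the 6 motifs. The second GATA2 window, chr3:128488481-128488780, held no palindrome and 2 matches to CAGGTG, and the FOXA1 window held 1. AGAACA was found in 14.8% of all windows, TGTTTAC in 3.42%, AGATAA in 10.3% and CAGGTG in 20.6%. A match is a run of letters and not a shown binding site, and distal elements were not searched.

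Related genes were read from lists chosen with earlier results of these data known, by leading probe sets, beside 12.1% of all genes called for androgen and 14.7% for added celastrol. Genes of the lists that are not counted as measured were not analysed here. Of 5 other steroid receptor genes none was called in either comparison (median -0.25 and 0.08), with 0 at an unadjusted p under 0.05 for androgen and 1 for added celastrol. That one was the mineralocorticoid receptor gene NR3C2, at 0.60 ± 0.20 (adjusted p = 0.0965), which was called without vehicle replicate 3. NR3C1, PGR and ESR2 lay below the array median on all 9 arrays, and ESR1 and NR3C2 on 6. The missing calls and the medians of these receptor genes are limited by that dim signal. Among 12 other lineage factors 4 rose and 2 fell with androgen (median 0.0007). Several of the factors that were not called lay below the array median on 8 or 9 arrays, which limits their missing calls. SOX9, which acts in prostate bud growth, read 132.5, 114.5 and 148.6 with androgen plus celastrol, 349.2, 293.5 and 352.6 with androgen and 85.9, 75 and 67.0 with vehicle, the same order of groups as SNAI2, MAF and SPDEF. Its log2 fold change was 2.13 ± 0.13 for androgen and -1.33 ± 0.13 for added celastrol. The Krüppel-like factors KLF5 (1.76 ± 0.26) and KLF4 (1.54 ± 0.23) and the epithelial factor GRHL2 (0.78 ± 0.09) also rose with androgen, while HOXC13 (-1.31 ± 0.10) and TBX3 (-0.36 ± 0.10) fell. The TBX3 call was lost when any 1 of the 9 arrays was left out. It was also lost with the array median subtracted, the replicate block and the fit of the compared groups only. For added celastrol SOX9 fell and the other 11 were not called (median -0.08), KLF4 being at -0.75 ± 0.23 (adjusted p = 0.0652), which was called without vehicle replicate 3 and in 8 of 10 settings that kept all arrays, so that 2 lineage factors were then called lower.

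Of 7 other Snail, ZEB and TWIST group genes, TWIST1 rose with androgen by 1.17 ± 0.11 and fell with added celastrol by 0.72, and TCF3, an E protein, fell with added celastrol by 0.81. The medians were -0.03 and -0.18, and SNAI1 gave 0.12 ± 0.19 and -0.18 ± 0.19 at intensities below the array median. Several others of this group also lay below it on all 9 arrays, which limits their missing calls and the medians. TCF3 was not called with the mean of its probe sets. TWIST1 read 216.9, 210.3 and 254.8 with androgen plus celastrol, 370.9, 344.2 and 407.3 with androgen and 161.9, 153.1 and 183.1 with vehicle. E-cadherin CDH1, the best-known SNAI2 target, read 4112, 4336 and 4012 with androgen plus celastrol, 3957, 3814 and 3760 with androgen and 3919, 3813 and 4006 with vehicle, and was not called at -0.03 ± 0.07 for androgen and 0.11 ± 0.07 for added celastrol. Of 12 adhesion genes 2 rose and 2 fell with androgen (median -0.08), and 3 rose and 1 fell with added celastrol (median 0.01). Fibronectin FN1 fell by 1.31 with androgen and rose by 0.83 with added celastrol, and EPCAM gave -0.36 and 0.31. Claudin CLDN7 rose in both, by 0.39 ± 0.08 and 0.71 ± 0.08, TJP1 rose with androgen by 0.29 ± 0.08, and desmoplakin DSP fell by 0.71 with added celastrol. Vimentin VIM was not called, at -0.47 ± 0.28 and -0.86 ± 0.28. For androgen, CLDN7 was not called without androgen replicate 1, 2 or 3, and EPCAM without androgen replicate 1 or 2 or vehicle replicate 1 or with the array median subtracted. TJP1 was called there only without androgen plus celastrol replicate 1 or vehicle replicate 3 among the 9 arrays. The TJP1 call was also lost with quantile or cyclic loess normalization, the replicate block and the fit of the compared groups only. Among the leave-one-out fits, the rise of EPCAM with added celastrol was kept only without vehicle replicate 2 or 3. That rise was also lost with the array median subtracted and with the replicate block. VIM was called lower with added celastrol without vehicle replicate 3, with quantile or cyclic loess normalization and with dim probe sets left out.

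**Figure D4:**
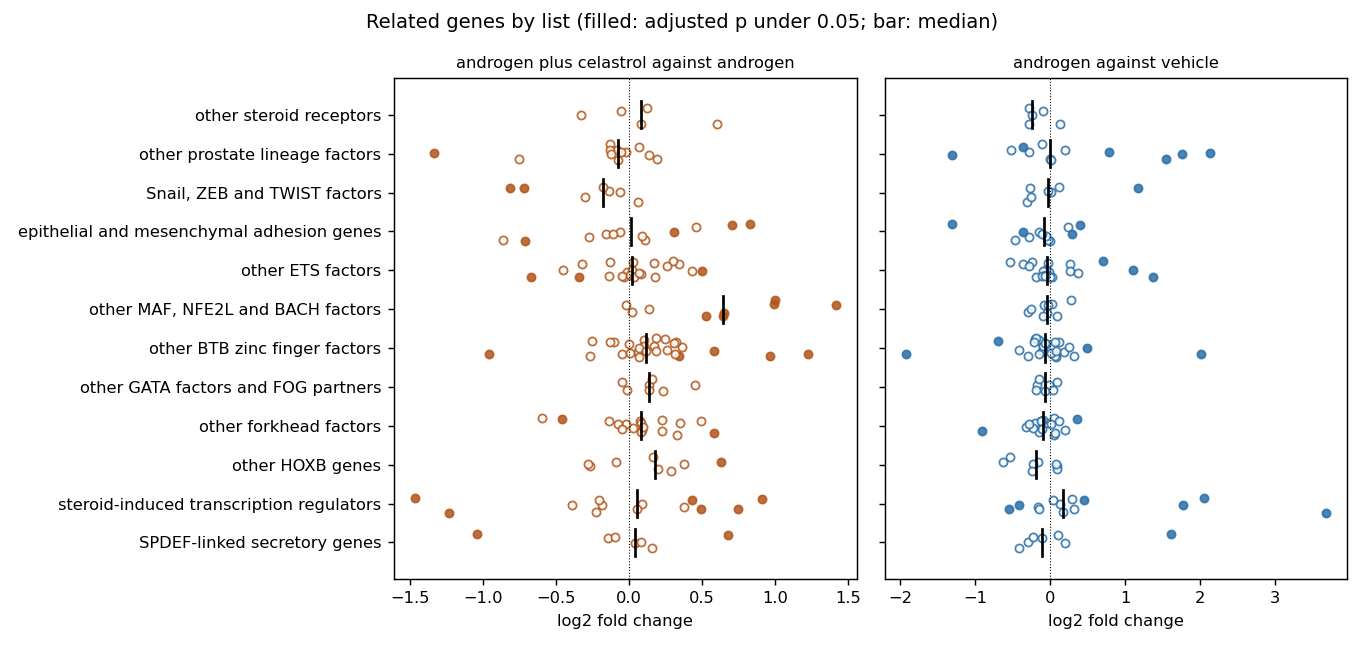
Log2 fold change (x axis) of each measured gene of 12 lists (y axis, vertical jitter only) for added celastrol (left) and androgen (right), filled where the adjusted p was below 0.05, with a bar at the list median. The MAF, NFE2L and BACH factors stand at a median of 0.64 for added celastrol and -0.04 for androgen.

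None of 9 other MAF, NFE2L and BACH factors was called for androgen (median -0.04), and 0 passed there at an unadjusted p under 0.05. With added celastrol, where MAF fell, 6 of them rose and none fell (median 0.64), and 8.13% of all genes rose. The 3 that were not called there lay below the array median on all 9 arrays. MAFF, a small MAF protein that pairs with other leucine zipper factors, read 105.3, 118.2 and 119.2 with androgen plus celastrol, 44.4, 42.6 and 41.6 with androgen and 41.9, 40.8 and 48.1 with vehicle. It rose by 1.41 ± 0.09 over androgen. MAFG, another small MAF, rose by 1.00 ± 0.21, and the retinal factor NRL by 0.99 ± 0.21. NFE2L1 rose by 0.65 ± 0.08, the heme-sensing repressor BACH1 by 0.64 ± 0.10 and NFE2L2, the antioxidant response factor NRF2, by 0.53 ± 0.08. NFE2L2 read 1613, 1593 and 1509 with androgen plus celastrol, 1063, 1032 and 1175 with androgen and 1031, 994.9 and 1052 with vehicle. MAFG was not called without androgen plus celastrol replicate 2 or 3 or androgen replicate 2 or 3. The NRL rise was lost without androgen plus celastrol replicate 2 or 3 or any 1 androgen array, and with the mean of its probe sets.

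In the other ETS family, 3 of 22 genes rose and none fell with androgen (median -0.04), with 5 and 2 at an unadjusted p under 0.05. They were ELK4 (1.37 ± 0.17), ELF2 (1.10 ± 0.17) and the epithelial factor EHF (0.70 ± 0.12). Many of the other ETS genes lay below the array median on 8 or 9 arrays. Their missing calls and the list medians are limited by that dim signal. With added celastrol ELF1 rose by 0.50 ± 0.08, and ELK4 (-0.67 ± 0.17) and ELF5 (-0.34 ± 0.09) fell (median 0.02). ELF2 was not called there, at a mean of 504.9 with androgen plus celastrol and 689.4 with androgen. It was called without vehicle replicate 3, with quantile or cyclic loess normalization and in the fit of the compared groups only. The ELK4 fall was lost without any 1 androgen plus celastrol array, without androgen replicate 1 or 3 and with the replicate block, and the ELF5 fall, at levels below the array median on all 9 arrays, was lost in all leave-one-out fits except that without vehicle replicate 3 and in 5 of 9 settings that kept all arrays. ELK4 read 138.8, 142.1 and 138.8 with androgen plus celastrol, 233.5, 189.9 and 250.5 with androgen and 95.8, 101.2 and 66.0 with vehicle.

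Among 27 other BTB zinc finger genes 2 rose and 2 fell with androgen (median -0.07), and 4 rose and 1 fell with added celastrol (median 0.11). Several that were not called lay below the array median on 8 or 9 arrays, which limits their missing calls. ZBTB24 gave 2.01 ± 0.20 and -0.95 ± 0.20, in the directions of SNAI2 and MAF, and ZBTB43 gave -1.92 ± 0.17 and 1.23 ± 0.17. ZBTB1 (0.49 ± 0.08) rose and PATZ1 (-0.70 ± 0.08) fell with androgen. The ZBTB1 rise was lost with the mean of its probe sets. The other risers with added celastrol were ZBTB25 (0.97 ± 0.19), the lymphoid repressor BCL6 (0.58 ± 0.08) and ZBTB11 (0.34 ± 0.09). Of these, ZBTB11 was lost without androgen plus celastrol replicate 2 or 3, any 1 androgen array or vehicle replicate 1, and with the replicate block. The ZBTB24 fall was not called without androgen plus celastrol replicate 1 or 2 or androgen replicate 1 or 2. Without vehicle replicate 3, or with dim probe sets left out, PATZ1 was called lower with added celastrol as well. ZBTB43 read 434.8, 571.6 and 537.8 with androgen plus celastrol, 236.6, 228.5 and 193.5 with androgen and 920.2, 947.7 and 654.0 with vehicle.

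None of 7 other GATA and FOG genes was called (median -0.07 for androgen and 0.14 for added celastrol), with 1 at an unadjusted p under 0.05 for androgen and 0 for added celastrol. Of these 7, 6 lay below the array median on all 9 arrays. None of 8 other HOXB genes was called for androgen (median -0.19), with 0 at an unadjusted p under 0.05, and HOXB6 rose with added celastrol by 0.63 ± 0.17 (median 0.18). All 8 lay below the array median on at least 8 arrays, HOXB6 on all 9. The HOXB6 rise was kept only without vehicle replicate 2 or 3 among the leave-one-out fits and was lost with the mean of its probe sets, quantile normalization and the replicate block, and HOXB6 was called lower for androgen without vehicle replicate 3. Of 18 other forkhead genes FOXO3 rose (0.36 ± 0.08) and FOXN3 fell (-0.91 ± 0.16) with androgen (median -0.10). Many of these forkhead genes lay below the array median on 8 or 9 arrays, which limits their missing calls and the list medians. With added celastrol FOXD1 rose (0.58 ± 0.16) and FOXO3 fell (-0.45 ± 0.08), with a median of 0.08, and these shares of the list are near those of all genes. The FOXO3 rise was lost without androgen replicate 1 or 2 or vehicle replicate 1 or 2. It was also lost with quantile normalization, the replicate block and the fit of the compared groups only. FOXD1 lay below the array median on all 9 arrays. Its rise was kept only without vehicle replicate 2 or 3 among the leave-one-out fits. That rise was also lost with the mean of its probe sets, quantile normalization and the replicate block. FOXM1 was called lower with added celastrol without androgen plus celastrol replicate 3 or vehicle replicate 3. It was also called lower there with the array median subtracted, with quantile or cyclic loess normalization and with dim probe sets left out.

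Transcription regulators known to respond to steroids moved in both directions. Of 13 measured, 4 rose and 2 fell with androgen (median 0.17), and 4 rose and 2 fell with added celastrol (median 0.06). EAF2, an elongation factor partner, rose by 3.69 ± 0.19 with androgen, BHLHE40, a circadian repressor, by 2.05 ± 0.19, CREB3L2 by 1.78 ± 0.16 and CEBPD by 0.46 ± 0.07, while ID3 (-0.55 ± 0.10) and KLF9 (-0.41 ± 0.10) fell. With added celastrol BHLHE40 (-1.46 ± 0.19) and EAF2 (-1.23 ± 0.19) fell, and CEBPB (0.91 ± 0.08), ID1 (0.74 ± 0.13), ID3 (0.49 ± 0.10) and CEBPD (0.43 ± 0.07) rose. CREB3L2 was not called there, at a mean of 472.1 with androgen plus celastrol and 618.3 with androgen. It was called without vehicle replicate 3, with quantile or cyclic loess normalization and in the fit of the compared groups only. The KLF9 fall was lost without androgen replicate 2 or 3 or vehicle replicate 1 or 2 and with the replicate block, and the ID3 rise without androgen plus celastrol replicate 3 or androgen replicate 2 or 3. With the mean of their probe sets, the KLF9 fall and the CEBPD rise in both comparisons were not called. The KLF9 fall was also lost with the array median subtracted. Among 7 genes linked to SPDEF in secretory cells, AGR2, a disulfide isomerase of mucus-secreting cells, rose by 1.61 ± 0.14 with androgen and fell by 1.04 with added celastrol. AGR2 read 527.8, 540.3 and 540.3 with androgen plus celastrol, 1075, 1147 and 1090 with androgen and 409.5, 408.7 and 282.8 with vehicle, the same order as SPDEF. All other measured genes of that list lay below the array median on all 9 arrays. Little can therefore be read from their missing calls or from the list medians. None of them was called for androgen (list median -0.11). GCNT3 rose with added celastrol by 0.68 ± 0.16 (list median 0.04), a call lost without androgen plus celastrol replicate 2 or 3 or any 1 androgen array.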

How the data were processed

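Biotin-labelled cRNA of 9 LNCaP cultures was hybridised to Affymetrix human genome arrays, 3 per group. The deposited intensities, 1 per probe set and array, are the authors' RMA output, as the submitters' processing notes name it, and their linear scale was read from the values. Neither an RMA version nor a genome build was given in the sources used here. RMA brings arrays to a common distribution, which can shift genes where many move in 1 direction. Values were logged to base 2 with a pseudocount of 0, and limma 3.58.1 (R 4.3.3, no intensity trend) was fitted to all 22215 probe sets with 6 residual and 2.8 prior degrees of freedom, after it was tested on simulated data. Benjamini-Hochberg adjustment ran over all probe sets with a threshold of 0.05. Because no label says how the cultures were separated, p-values measure only the spread between these samples. Of the probe sets, 19724 carry 1 gene symbol, 568 several and 1923 none, and 19707 symbols were matched through gene IDs.

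The 9 factors and all lists were chosen with earlier results of these data known. Genes named in the text were the 9 factors with all their probe sets, up to 4 called genes of a list by size, any gene where a count was 5 or fewer, the 2 genes most correlated with each called factor, and KLK3, SNAI1, CDH1, VIM, MAFF, MAFG and NFE2L2. BACH1 and the genes named for a call in an alternative fit alone were singled out after their values were seen. So were the genes whose array values or group means are printed outside the factors. The genes named for a call in an alternative fit alone were NR3C2, KLF4, FOXM1, PATZ1, HOXB6, ELF2 and CREB3L2. Replicate numbers come from the labels. Deviations from group means of same-numbered arrays correlated at 0.388, 0.373 and 0.625 for androgen and vehicle. Each of these values exceeds 0.1, but the reported fit did not treat the arrays as paired. Androgen 1 with vehicle 2 (0.410) and androgen 2 with vehicle 1 (0.300) were similar, and replicates 3 stood apart from the others (-0.398 to -0.566). The correlations therefore do not establish pairing by number. The reported fit held no replicate term, and the replicate block was run as an alternative. Deviations of same-numbered arrays correlated at -0.086, 0.218 and -0.160 for androgen plus celastrol and androgen. For androgen plus celastrol and vehicle they correlated at -0.263, 0.123 and -0.270. These arrays were not taken as paired either. The 19 alternatives left out each array in turn, or changed the scaling (median, quantile, cyclic loess), pseudocount, probe set choice (leading, mean, dim ones removed), intensity trend, groups fitted or replicate block. No scan date was at hand for a batch test, and the number of arrays limits the precision.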

Additional observations from a re-analysis of the deposited data

How the results depend on the processing

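Of the comparisons of each factor's leading probe set, 494 of 513 alternative values kept their direction and side of the threshold, 8 lost and 9 gained a call. Direction turned only for FOXA1 with added celastrol, at 0.0003 and 0.0092 in 2 of the fits that each leave out 1 array, over a range of -0.0216 to 0.0092. The number of factors called lower for androgen, 0 in the fit as reported, was 1 with quantile normalization, cyclic loess normalization or the mean of a gene's probe sets, and 0 to 1 when 1 array was left out. The number called lower for androgen plus celastrol against vehicle, 2 as reported, was 1 in a fit of the compared groups only and 1 to 2 when 1 array was left out. Counts called higher for androgen were 5 to 6 and counts called lower for added celastrol 4 to 5. With the replicate block 5 factors were called higher for androgen, as without it, and it changed no other call of the 9 factors. Among the related gene lists, between 1 and 15 of 72 counts moved by more than 1.5 times in a given setting. The causes were not tested. Where a probe set lay below the array median, as SNAI2 did with vehicle, its fold change is limited by the dim signal.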
